A study of Mus musculus with 8 samples.

Results

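Innate microbial sensors and the inflammasome were examined as 10 genes of jejunal epithelial cells: the inflammasome genes Nlrp6, Pycard, Casp1 and Il18, the cytosolic receptors Nod1 and Nod2, the Toll-like receptors Tlr2, Tlr4 and Tlr5, and the adaptor Myd88. They were chosen by name, from the Ensembl identifiers of a table of 48440 genes, and all 10 were present in it. RNA had been sequenced from 8 female mice, 1 library per animal, that carry the Sox9-EGFP reporter on a C57BL/6J background and were raised germ-free. The 4 conventionalized mice were moved at 8 to 10 weeks of age to another animal facility, were gavaged with a slurry of feces from conventionally raised mice of the reporter colony, and were taken 2 weeks later. The 4 germ-free mice were their littermates, 1 in each of the pairs A to D, and stayed germ-free, so exposure to microbes cannot be told apart from the move. From every animal the sorted jejunal cells had a low reporter signal, and the gates removed Annexin-V, CD31, CD45 and Sytox-blue positive cells.

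These genes encode the receptors with which a cell detects bacterial products and part of the machinery that answers. Toll-like receptors at membranes bind lipoproteins (Tlr2), lipopolysaccharide (Tlr4) or flagellin (Tlr5) and signal through the adaptor Myd88, while Nod1 and Nod2 detect peptidoglycan fragments in the cytosol. Nlrp6 belongs to the NOD-like receptors and is known in the mouse gut epithelium. An inflammasome sensor of this kind gathers the adaptor Pycard (also called ASC), which recruits pro-caspase-1 (Casp1), and active caspase-1 cleaves the precursor of the cytokine interleukin-18 (Il18) and the pore-forming protein gasdermin D.

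The 4 members with the highest median levels were Pycard, Nlrp6, Casp1 and Myd88, and each had a higher mean in conventionalized than in germ-free mice. The 250 bases before the RefSeq start of each (build GRCm38.p6, 5′ to 3′) are shown for these 4, whose fold changes had the same direction. That direction was not particular to them. With no filter Il18 and Tlr2 also had positive log2 fold changes (0.75 and 0.76), and 70.2% of all genes tested were above 0. Capitals mark matches on either strand to AP-1 (TGANTCA), NF-kB (GGG, 2 bases of any kind, then TTTCC), ISRE (GAAA, 2 bases of any kind, then GAAA) or GAS (TTCNNNGAA).
Nlrp6 (chr7:140920652-140920901, plus strand): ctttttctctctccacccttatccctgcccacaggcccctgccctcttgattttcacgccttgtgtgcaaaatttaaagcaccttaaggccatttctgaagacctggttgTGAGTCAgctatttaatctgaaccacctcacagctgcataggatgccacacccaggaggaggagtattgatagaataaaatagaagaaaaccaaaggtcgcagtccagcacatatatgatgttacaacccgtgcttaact
Pycard (chr7:127993868-127994117, minus strand): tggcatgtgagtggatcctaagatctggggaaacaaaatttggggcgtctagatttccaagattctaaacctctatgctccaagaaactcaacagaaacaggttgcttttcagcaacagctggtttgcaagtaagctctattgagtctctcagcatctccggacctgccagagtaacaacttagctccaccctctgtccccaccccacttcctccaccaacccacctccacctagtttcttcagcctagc
Casp1 (chr9:5298267-5298516, plus strand): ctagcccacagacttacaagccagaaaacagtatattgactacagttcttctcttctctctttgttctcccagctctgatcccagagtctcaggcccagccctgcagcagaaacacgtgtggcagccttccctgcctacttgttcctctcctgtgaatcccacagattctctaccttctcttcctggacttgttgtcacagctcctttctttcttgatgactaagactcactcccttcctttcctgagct
Myd88 (chr9:119340019-119340268, minus strand): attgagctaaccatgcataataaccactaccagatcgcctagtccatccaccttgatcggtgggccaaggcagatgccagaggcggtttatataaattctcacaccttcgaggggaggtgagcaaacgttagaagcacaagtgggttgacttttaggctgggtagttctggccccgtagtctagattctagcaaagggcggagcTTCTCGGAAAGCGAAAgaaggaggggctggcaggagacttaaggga
The upstream sequence of Nlrp6 held 1 AP-1 match, at bases -140 to -134 before the start. That of Myd88 held a GAS match at -46 to -38 and an ISRE match at -40 to -31, which overlap and form 1 run of capitals. In the sequences of Pycard and Casp1 these 4 patterns were not found. Over 32851 upstream sequences of the same length, 6.75% held the AP-1 pattern, 1.41% NF-kB, 2.98% ISRE and 7.02% GAS. A match describes the letters and is not a binding site. A sequence was on hand for 9 of the 10 genes (Tlr4 being the one without), and among the other 5 only the second of the Nod1 starts held a match, to GAS.

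Levels below are CPM, the deposited signal of a gene scaled to a common library total with TMM factors, which evens out differences in composition between libraries. Depth was 6209041 to 19139685 reads per library on an approximate scale, the deposited total divided by the smallest step of its values. The sorted cells carried epithelial transcripts, with Epcam at 2215 ± 652 CPM in the conventionalized animals and 1423 ± 396 CPM in germ-free libraries (SD, n = 4 each). Of 46 macrophage, neutrophil, dendritic cell and lymphocyte markers none passed the filter of 10 CPM in at least 4 libraries, and the pan-leukocyte gene Ptprc was at 9.62 ± 8.03 CPM in the conventionalized animals and 11.1 ± 5.69 CPM in germ-free libraries. Endothelial and stromal markers, 9 genes, summed to 4.64 to 28.6 CPM in conventionalized mice and 26.5 to 55.4 CPM in germ-free mice. Of these only Pecam1, the gene of the gated antigen CD31, passed the filter, and it was called lower, at 2.15 to 9.84 CPM in conventionalized mice and 13.4 to 25.3 CPM in germ-free mice. It passed only through the germ-free libraries, where it was higher, since no conventionalized library reached 10 CPM. Germ-free pair C differed from the rest, with a median correlation of 0.792 to its group against 0.871 to 0.943 for the others. It also had the lowest depth (6209041) and the highest TMM factor, 1.403 against 0.7634 to 1.155 for the others. Its weight in the fit with library weights was the lowest, 0.201 against 0.538 to 2.76. The part of these in its levels was not tested. The conventionalized library of pair A stood apart on goblet cell markers, which summed to 51464 CPM there and to 1622 to 6214 CPM in the other conventionalized libraries.

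The inflammasome adaptor and sensor had the highest median levels of the members, and Tlr4 and Tlr5 the lowest. Per kilobase of merged exon, Pycard had a median over the 8 libraries of 134 CPM (14.0 to 338), Nlrp6 of 70.9 (14.2 to 142) and Casp1 of 48.0 (16.6 to 104). Myd88 followed with 17.9 CPM per kilobase (7.21 to 29.95), Nod1 with 4.15 (3.12 to 5.95), Tlr2 with 2.79 (0.803 to 5.24) and Il18 with 2.37 (1.002 to 19.0). Nod2 reached 0.436 CPM per kilobase (0.0386 to 0.914), Tlr4 0.0929 (0.0248 to 0.298) and Tlr5 0.0525 (0 to 0.651). The ranges of neighbours in this order overlapped, except those of Myd88 over Nod1 and of Il18 over Nod2. Within single libraries Pycard stood above Nlrp6 in 7 of 8, Nlrp6 above Casp1 in 7 of 8 and Casp1 above Myd88 in 8 of 8. With the median length of coding transcripts in place of merged exons, Il18 ranked above Tlr2, and no other member changed its place.

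**Figure D1:**
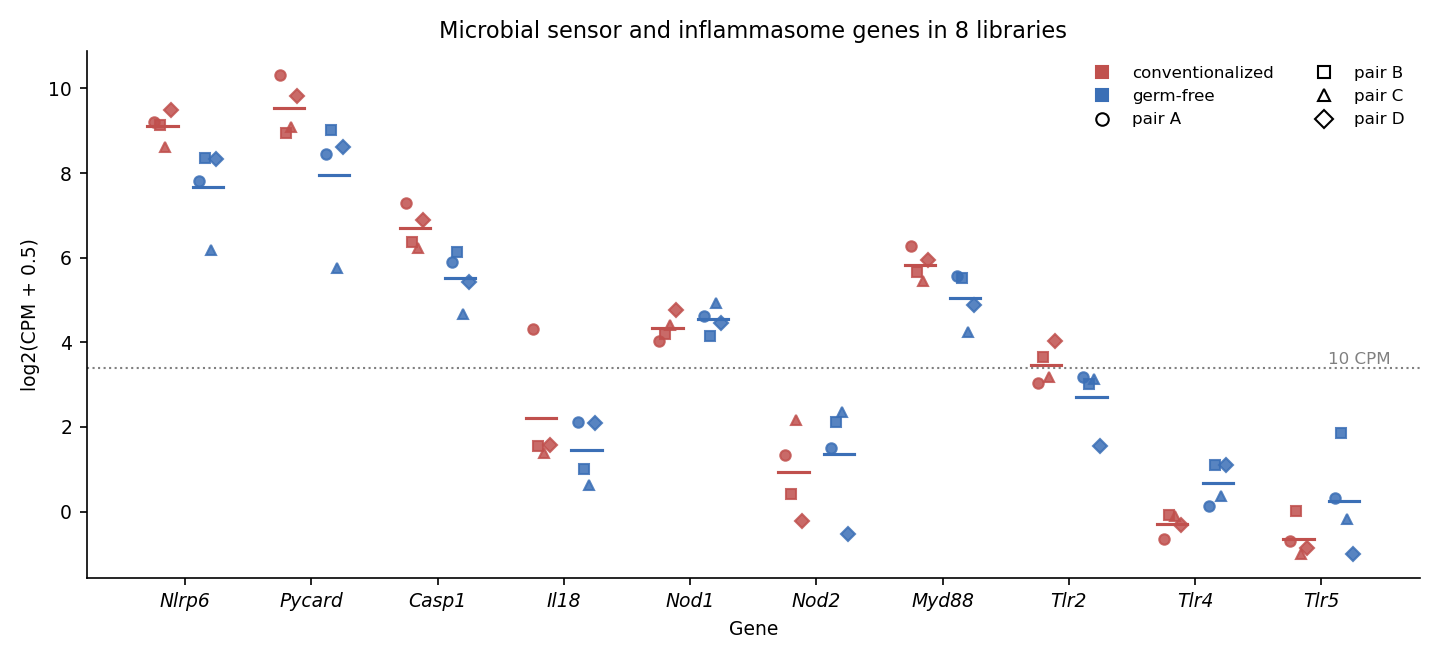
Level of the 10 members in each library, as log2(CPM + 0.5), in conventionalized (left of each gene) and germ-free (right) mice; points are libraries, symbols the littermate pair, bars group means, and the dotted line is 10 CPM. Nlrp6 and Casp1 are higher in every conventionalized library than in any germ-free one, and Il18, Nod2, Tlr4 and Tlr5 lie mostly far below the line.

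In conventionalized mice 3 inflammasome genes, Nlrp6, Pycard and Casp1, averaged 2.404, 2.45 and 2.20 times the level of germ-free mice, and the call depended on whether the littermate pairs were used. Of the 5 members over the filter, limma called 0 in either direction after adjustment over all 10053 genes tested, of which 4.92% were called; 4 of the 5 had an unadjusted p under 0.05, as had 27.8% of all genes. With the littermate pair as a block 3 of the 5 were called, all higher, while of all genes 13.1% were called, 8.08% higher and 5.02% lower. The median log2 fold change, conventionalized over germ-free, was 1.17 over the 5 members and 0.32 over all genes tested, 70.2% of which were above 0. In these bulk samples fewer cells of a type and less RNA per cell cannot be told apart.

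Nlrp6 (ENSMUSG00000038745.15, GRCm38 chromosome 7, 140920902 to 140929192) is the sensor of the group. It had 591, 559.6, 395 and 721 CPM in conventionalized animals of pairs A to D, against 223, 326, 72.3 and 321 CPM in the germ-free libraries. Every conventionalized library was higher than every germ-free one, with germ-free pair C far below the rest. The mean was 566 ± 134 CPM in conventionalized mice and 236 ± 119 CPM in germ-free mice (SD, n = 4 each), and the log2 fold change was 1.45 (SE 0.46, limma adjusted p = 0.0859), or 1.123 above the median gene. With the littermate block it was called (SE 0.33, adjusted p = 0.021), and within the pairs the log2 difference was 1.40, 0.78, 2.44 and 1.17. Without germ-free pair C the log2 fold change was 0.96 (adjusted p = 0.0821).

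Pycard (ENSMUSG00000030793.4, chromosome 7, 127989708 to 127993867), the adaptor, had 1283, 496, 541 and 901 CPM in the conventionalized animals and 351, 519, 53.3 and 392 CPM in germ-free libraries. The groups overlapped, since pair B had nearly equal levels in its 2 animals, and the lowest value was again that of germ-free pair C. Means of 805 ± 366 CPM in conventionalized mice and 329 ± 197 CPM in germ-free mice gave a log2 fold change of 1.58 (SE 0.62, limma adjusted p = 0.137; SE 0.46 and adjusted p = 0.0449 with the littermate block). Pair differences were 1.87, -0.07, 3.33 and 1.20 on the log2 scale, and without germ-free pair C the log2 fold change was 0.85 (adjusted p = 0.162). Without that library and conventionalized pair A, the goblet-marker-rich one, it was 0.59 (limma adjusted p = 0.383). The gene shares 485 exonic bases with Gm45205 on the other strand, which reached at most 30.8 CPM, and the sources used here do not state that reads were counted by strand.

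Casp1 (ENSMUSG00000025888.5, chromosome 9, 5298517 to 5307265), the protease, had 156, 81.8, 74.1 and 119 CPM in the conventionalized animals and 58.7, 69.6, 24.9 and 42.5 CPM in germ-free libraries. As for Nlrp6, the groups did not overlap, though the lowest conventionalized and the highest germ-free value were close. This absence of overlap with conventionalized libraries higher held for 2 of the 5 tested members and for 9.03% of all genes tested. Casp1 averaged 108 ± 37.8 CPM in the conventionalized animals and 48.9 ± 19.5 CPM in germ-free libraries, with a log2 fold change of 1.17 (SE 0.36, limma adjusted p = 0.0777; SE 0.29 and adjusted p = 0.0259 with the littermate block). Within pairs A to D it differed by 1.41, 0.23, 1.55 and 1.47 on the log2 scale, and without germ-free pair C and conventionalized pair A the log2 fold change was 0.68 (limma adjusted p = 0.217). The adjusted p was 0.0407 with scaling by library size only and 0.0459 with upper-quartile scaling, where 1.16% and 2.62% of all genes were called higher. Library weights also called Nlrp6 and Casp1 higher (7.61% of all genes), as did leaving out germ-free pair B (4.43%).

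Il18 (ENSMUSG00000039217.12, chromosome 9, 50554827 to 50581840), the cytokine substrate of caspase-1, did not share the level of these genes. It had 19.6, 2.404, 2.13 and 2.47 CPM in the conventionalized animals and 3.83, 1.51, 1.03 and 3.77 CPM in germ-free libraries. The conventionalized library of pair A alone exceeded 10 CPM, on about 239 reads, while the other 7 held about 9 to 42 reads each. That library is the one with the high goblet cell markers. Its absorptive enterocyte markers were high as well, at 3853 CPM against 962 to 1638 CPM in the other conventionalized libraries. The part of either in this value was not tested. In a fit of all 38312 genes above 0, where 0.929% were called, the log2 fold change was 0.75 (SE 0.63, limma adjusted p = 0.629), and it was 0.02 without that library and -0.24 without germ-free pair C as well.

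**Figure D2:**
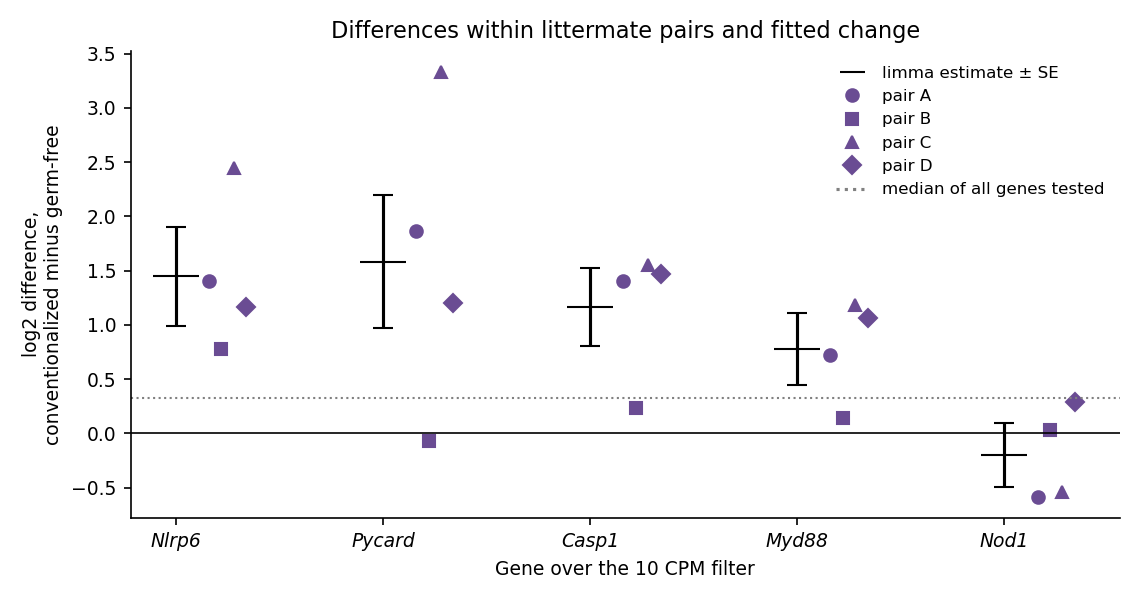
Difference between the conventionalized and the germ-free littermate, in log2(CPM + 0.5), for the 5 members over the filter (purple symbols, 1 per pair), beside the limma estimate with its standard error (black) and the median of all genes tested (dotted). Pair B has the smallest difference for Nlrp6, Pycard, Casp1 and Myd88, and pair C the largest.

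The cytosolic peptidoglycan receptors were low, and neither was called. Nod1 (ENSMUSG00000038058.14, chromosome 6, 54923949 to 54972612) had 15.8, 17.7, 20.6 and 26.5 CPM in the conventionalized animals and 24.0, 17.3, 30.2 and 21.6 CPM in germ-free libraries. The groups overlapped, and unlike the inflammasome genes Nod1 was at its highest in germ-free pair C. Its log2 fold change of -0.20 (SE 0.29, limma adjusted p = 0.659) was 0.03 or above in 2 pairs and -0.54 or below in the other 2. Nod2 (ENSMUSG00000055994.15, chromosome 8, 88647315 to 88688474) had 2.03, 0.831, 4.01 and 0.361 CPM in the conventionalized animals and 2.34, 3.86, 4.58 and 0.194 CPM in germ-free libraries, on about 2 to 43 reads. With no filter its log2 fold change was -0.44 (SE 0.66, adjusted p = 0.762), and in each group the animal of pair D was lowest. It was -0.07 without conventionalized pair D and -1.06 without germ-free pair D, the ends of the range over the 8 fits that left out 1 library.

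Myd88 (ENSMUSG00000032508.8, chromosome 9, 119335934 to 119341411), through which Tlr2, Tlr4 and Tlr5 signal, had 77.2, 49.9, 42.9 and 61.4 CPM in the conventionalized animals and 46.7, 45.3, 18.6 and 29.1 CPM in germ-free libraries. The conventionalized animal was the higher one in 4 of 4 pairs, though the groups overlapped. Its log2 fold change of 0.78 (SE 0.33) did not pass (limma adjusted p = 0.158, and 0.0723 with the littermate block), and it was 0.52 without germ-free pair C and 0.36 without conventionalized pair A as well. Myd88 shares 290 exonic bases with Acaa1a on the other strand, a gene of peroxisomal fat breakdown that reached 363 CPM, and reads from that stretch cannot be told apart without strand.

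All 3 Toll-like receptors were below the filter. Tlr2 (ENSMUSG00000027995.10, chromosome 3, 83836272 to 83841767) was the highest, with 7.70, 12.1, 8.60 and 15.8 CPM in the conventionalized animals and 8.55, 7.57, 8.26 and 2.42 CPM in germ-free libraries. The groups overlapped, and germ-free pair D lay below the other 7 libraries. With no filter the log2 fold change was 0.76 (SE 0.46, limma adjusted p = 0.507), and it was 0.37 without germ-free pair D. Tlr4 (ENSMUSG00000039005.13, chromosome 4, 66827584 to 66930284), the lipopolysaccharide receptor, had 0.138, 0.444, 0.426 and 0.308 CPM in the conventionalized animals and 0.589, 1.64, 0.786 and 1.65 CPM in germ-free libraries. Every conventionalized value was under every germ-free one. Among genes over the filter, which Tlr4 is not, this held for 5.88%, and the share among lower genes was not computed. The Tlr4 values rest on about 2 to 18 reads a library, and its log2 fold change of -0.96 did not pass (SE 0.45, limma adjusted p = 0.392). Pecam1, which passed the filter only through the germ-free libraries, and the summed endothelial and stromal markers were also lower in conventionalized mice. Their part in the Tlr4 values was not tested. Tlr5 (ENSMUSG00000079164.8, chromosome 1, 182954788 to 182976044), the flagellin receptor, had 0.119, 0.503, 0 and 0.0504 CPM in the conventionalized animals and 0.755, 3.12, 0.384 and 0 CPM in germ-free libraries. A count of 0 allows up to 0.320 CPM in the conventionalized library of pair C and 0.308 CPM in germ-free pair D, counting error only and before TMM scaling. Germ-free pair B held the highest value, about 35 reads, and the log2 fold change was -0.89 (SE 0.50, limma adjusted p = 0.473), or -0.37 without that library.

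The surrounding pathways, 139 further genes in 11 lists, gave 5 calls among the 65 that were tested, 2 higher and 3 lower in conventionalized mice. Over all genes tested 1.16% were called higher and 3.76% lower, so counts this small say little about the lists, and the median log2 fold change of the 65 was 0.29 against 0.32 for all. The genes that rose were Cd14 and Casp4, and those that fell were Slc15a1, Gsdma and Gsdme. None of these 5 had overlapping groups, but they were called on the same values, so this is no further support. Cd14 and Casp4 passed the filter through the conventionalized libraries and Slc15a1 through the germ-free ones, in each case where levels were higher. Over all genes tested, 9.03% had groups without overlap and conventionalized libraries higher, and 5.88% had them lower. With the littermate block 4 rose, Naip1 and Pglyrp1 in addition, and the same 3 fell.

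Cd14 is a coreceptor that hands lipopolysaccharide to Tlr4, and it was called while its receptor was close to 0. It had 23.0, 20.1, 19.4 and 33.8 CPM in the conventionalized animals and 7.79, 15.7, 1.95 and 3.68 CPM in germ-free libraries, which did not overlap. Cd14 passed the filter through the conventionalized libraries, where it was higher, since in germ-free mice only pair B reached 10 CPM. With no filter it was not called (limma adjusted p = 0.0563). The log2 fold change was 1.98 (SE 0.51, limma adjusted p = 0.0397), and in the 8 fits without 1 library it was called in 2 only, with adjusted p between 0.00469 and 0.141. Cd14 was 1 of 6 tested genes among 10 cofactors and chaperones of Toll-like receptors. The other Toll-like receptor genes, Tlr1, Tlr3, Tlr6, Tlr7, Tlr8, Tlr9, Tlr11, Tlr12 and Tlr13, were all under the filter, and the highest single value was 13.8 CPM for Tlr12 in a germ-free library.

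Casp4, the mouse gene of caspase-11, which binds cytosolic lipopolysaccharide, also rose, and its groups did not overlap. It had 20.0, 18.5, 27.3 and 37.3 CPM in the conventionalized animals and 8.80, 13.5, 3.39 and 4.74 CPM in germ-free libraries. Like Cd14, it passed the filter through the conventionalized libraries, where it was higher, since in germ-free mice only pair B reached 10 CPM. With no filter the limma adjusted p was 0.0473. The log2 fold change was 1.82 (SE 0.42, limma adjusted p = 0.0268), and 3 of the 8 fits without 1 library called it, with adjusted p between 0.00338 and 0.103.

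Among gasdermins, proteins that form membrane pores once cleaved, 2 genes fell. Gsdma had 56.0, 22.6, 99.4 and 109 CPM in the conventionalized animals and 349, 215, 464 and 267 CPM in germ-free libraries, without overlap, and fell by 2.34 on the log2 scale (SE 0.45, limma adjusted p = 0.0106). All 8 fits without 1 library called it. Near-identical family members exist, so its reads may be divided wrongly among them. Gsdme had 93.7, 31.8, 50.0 and 51.0 CPM in the conventionalized animals and 156, 118, 205 and 117 CPM in germ-free libraries and fell by 1.45 (SE 0.34, limma adjusted p = 0.0273), with 4 of 8 such fits calling it. Of the 8 tested genes for inflammatory caspases, gasdermins and pore repair, 1 was called higher and 2 lower.

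Slc15a1, a peptide transporter of the enterocyte surface that can carry bacterial peptides, was lower in every conventionalized animal than in any germ-free one. It had 11.5, 4.62, 9.80 and 6.96 CPM in the conventionalized animals and 49.3, 28.1, 76.9 and 29.3 CPM in germ-free libraries and fell by 2.36 (SE 0.39, limma adjusted p = 0.00587), in every fit without 1 library as well. Slc15a1 passed the filter through the germ-free libraries, where it was higher, since in conventionalized mice only pair A reached 10 CPM. With no filter the limma adjusted p was 0.00599. It was the only one of 9 tested genes of Nod1 and Nod2 signalling to be called. Absorptive enterocyte markers, a list without Slc15a1, summed to 962 to 3853 CPM in the conventionalized animals and 2014 to 5340 CPM in germ-free libraries. Krt20 led this sum, at 216 to 797 CPM in conventionalized and 1048 to 2160 CPM in germ-free libraries. Of the 10 tested markers 2 were called lower and 0 higher. Not all followed the sum, as Slc5a1 had 227 to 442 CPM in conventionalized and 136 to 335 CPM in germ-free libraries. The part of enterocyte content in the Slc15a1 result was not tested.

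**Figure D3:**
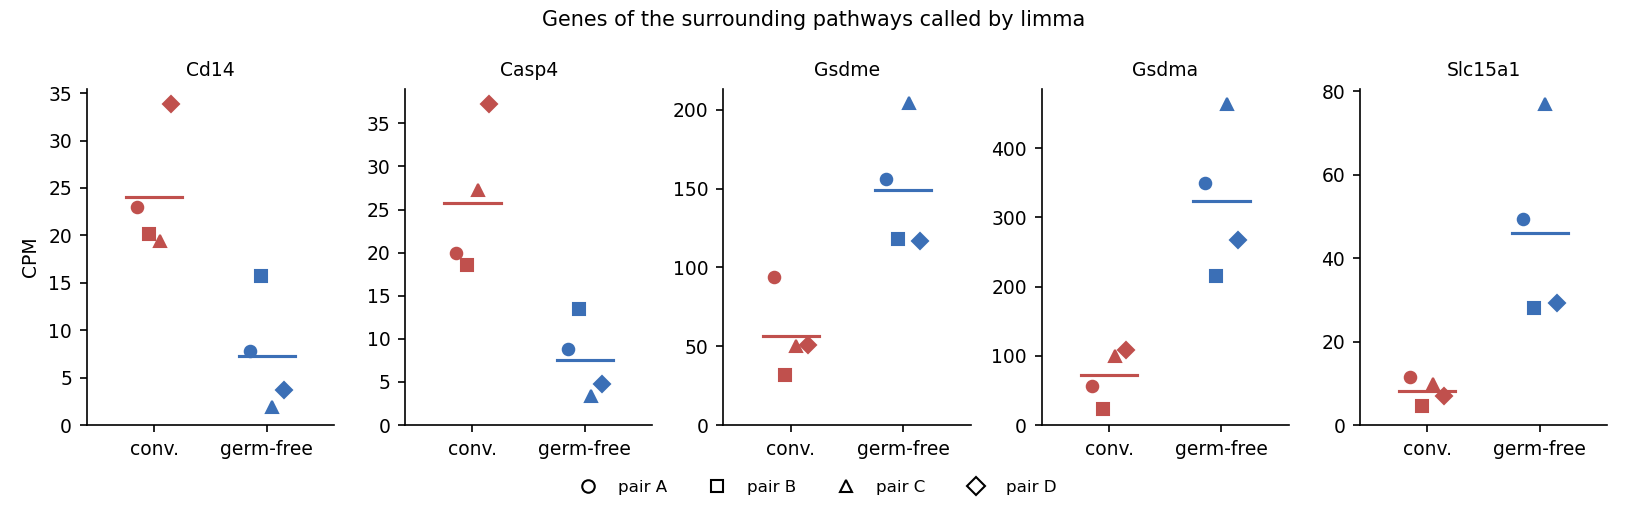
CPM of the 5 pathway genes called by limma, in conventionalized (red, left) and germ-free (blue, right) libraries; symbols give the littermate pair and bars the group mean. No gene has overlapping groups, Cd14 and Casp4 being higher and Gsdme, Gsdma and Slc15a1 lower in conventionalized mice. The genes were picked by their calls on these same values, so the lack of overlap is no further support.

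Among other inflammasome sensors and their regulators 0 of 10 tested genes were called by limma, with 3 at an unadjusted p under 0.05, and 1 was called with the littermate block. That gene, Naip1, had 22.3 ± 5.26 CPM in the conventionalized animals and 10.6 ± 3.21 CPM in germ-free libraries (SD, n = 4; log2 fold change 1.05, limma adjusted p = 0.0789, 0.0492 with the block). Naip2, a receptor for bacterial secretion system proteins, stood at 18.9 ± 2.70 CPM in the conventionalized animals and 32.6 ± 8.32 CPM in germ-free libraries without passing (log2 fold change -0.75, limma adjusted p = 0.131). The Naip genes are close paralogs, so the division of reads among them is uncertain. Nlrp3, the sensor of the inflammasome best known from macrophages, stayed at or below 1.40 CPM in every library, and the inflammasome cytokine gene Il1b at or below 0.617 CPM.

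In the 6 remaining lists limma called 0 genes, with 2 at an unadjusted p under 0.05. Pglyrp1, a secreted peptidoglycan-binding protein, had 335, 242, 237 and 428 CPM in the conventionalized animals and 158, 207, 57.7 and 178 CPM in germ-free libraries, a log2 fold change of 1.15 (limma adjusted p = 0.111, and 0.0381 with the block). Of 14 tested adaptors and kinases of Toll-like receptor signalling, the lowest p belonged to the kinase Irak2 (log2 fold change 0.67, limma adjusted p = 0.279) and the ubiquitin ligase Peli1 (-0.44, adjusted p = 0.303). Among 7 tested sensors of nucleic acids they belonged to Ifih1 (0.64, limma adjusted p = 0.199) and Mavs (0.71, adjusted p = 0.204). Tnfaip3 (1.05, limma adjusted p = 0.347) and Usp25 (0.44, adjusted p = 0.426) had the lowest p of the 8 negative regulators. Tnfaip3 was at 0.400 CPM in germ-free pair D and at 12.04 to 16.3 CPM in the other germ-free libraries, and its log2 fold change was 0.06 without that library. Without germ-free pair C the log2 fold change was 0.23 for Irak2 and 0.16 for Usp25. The single tested gene of the interleukin-1 family was the receptor subunit Il1rap (0.91, limma adjusted p = 0.148), and that of the other NOD-like receptors was Ciita (0.00, adjusted p = 0.996).

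The genes most like Nlrp6 across the 8 libraries were not members. In log2 CPM the highest Pearson correlations were those of Fads2 (0.996), a fatty acid desaturase, Cldn2 (0.995), a tight junction claudin, Sae1 (0.994), a SUMO-activating enzyme subunit, Tra2a (0.994), a splicing factor, and Mcm7 (0.994), a subunit of the replicative helicase. In deviations from the group means they were those of Rcc1 (0.999), Gnl3 (0.996), Larp7 (0.996), Kcnn4 (0.995) and Pes1 (0.995). Pycard ranked 736 in the first measure (0.949) and 827 in the second (0.928), Casp1 1840 (0.899) and 2893 (0.770). The points share library, depth and scaling, germ-free pair C is the lowest of the 8 for Nlrp6, and the values only describe these libraries.

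Summed levels of mitosis and enteroendocrine markers did not overlap between the groups, while those of stem cell, Paneth cell and macrophage markers did. The sums were not tested. Markers of crypt base stem cells summed to 4844 to 9640 CPM in the conventionalized animals and 771 to 5084 CPM in germ-free libraries, and mitosis markers to 1232 to 1597 CPM in conventionalized mice and 143 to 769 CPM in germ-free mice. Both lists were lowest in germ-free pair C, as were Nlrp6, Pycard, Casp1 and Myd88. That low point was not particular to these lists, since Paneth cell markers and Epcam (933 CPM) were lowest there too. Paneth cell markers summed to 7063 to 10956 CPM in the conventionalized animals and 2769 to 17112 CPM in germ-free libraries. Enteroendocrine markers ran from 9513 to 23868 CPM in the conventionalized animals and from 39330 to 92584 CPM in germ-free libraries. Macrophage and monocyte markers, from cells known for high levels of inflammasome and Toll-like receptor genes, summed to 10.9 to 23.9 CPM over 15 genes in conventionalized and 18.1 to 27.1 CPM in germ-free libraries, and the defining genes Csf1r and Adgre1 did not exceed 2.88 and 0.807 CPM in any library. The part of stem cell, mitosis, Paneth cell and enteroendocrine content in the member levels was not tested.

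**Figure D4:**
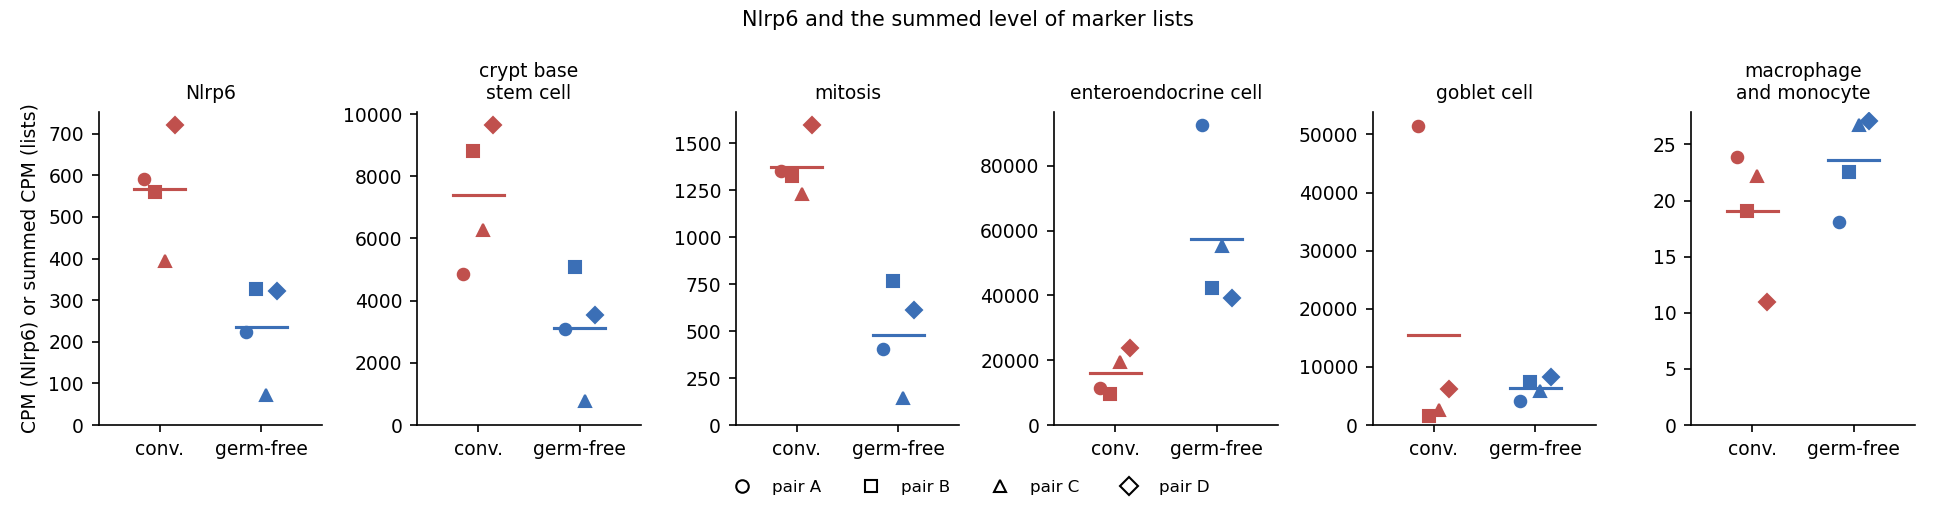
CPM of Nlrp6 and summed CPM of 5 marker lists in conventionalized (conv., red) and germ-free (blue) libraries, each panel with its own axis from 0; symbols give the littermate pair and bars the group mean. Nlrp6, stem cell and mitosis markers share their lowest library, germ-free pair C, as do Paneth cell markers and Epcam (not shown). Macrophage markers stay under 28 CPM.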

How the data were processed

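Small amounts of RNA (10 ng) from sorted cells of 8 mice were made into libraries by SMARTer Ultra Low Input amplification with Nextera XT tagmentation and read as 100 bp single ends, per the labels' protocols. Per the submitters' processing notes, the build was mm10 and the tools were STAR 2.4.2a, Trimmomatic 0.36, DESeq2 1.12.4 and R 3.3.1, and the series text names Salmon and edgeR. The deposited values are a signal per gene that the authors had normalized: in single-transcript genes 99.8% of values under 200 steps were whole multiples of 1 step per library (tolerance 0.02), in other genes 26.6%, so whole reads were not recovered and count models were not used.

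The signal was scaled to CPM with TMM factors computed from the published formula (trims of 30% and 5%). Genes that reached 10 CPM in 4 or more libraries were compared on log2(CPM + 0.5) by limma 3.58.1 (trend and robust options, R 4.3.3), two-sided, with Benjamini-Hochberg adjusted p-values over all 10053 genes and called under 0.05. The pseudocount shrinks the changes of low genes. Members under the filter were fitted with every gene above 0. The procedure was tested on simulated data. Symbols, positions and lengths came from GENCODE M21 (GRCm38), whose identifiers matched 48058 genes, and upstream sequences from RefSeq (GRCm38.p6).

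The labels name the littermate pair, so the design pairs the libraries, and the pair was fitted as a block as an alternative. Correlations within pairs of the deviations from group means were 0.142, -0.156, 0.307 and -0.00634. P-values of the fit without the block measure the spread between 4 animals per group, and those with the block the spread of differences within 4 pairs. The sequencing lane of each library is unknown here.

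Members and lists were chosen with earlier results of these data known. Text names all members, the genes called in each pathway list or, where none was, the 2 with the lowest p, and the 5 genes most like Nlrp6. Tlr1 to Tlr13 as a group, Nlrp3, Il1b, Acaa1a, Gm45205, Epcam, Ptprc, Csf1r, Adgre1, Krt20 and Slc5a1 were added after their values were seen.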

Additional observations from a re-analysis of the deposited data

Results flagged for a closer look

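In groups of 4 libraries, 1 library lay far from the other 3 in 3 of 76 groups examined, and chance gives about 1 in 20. Il18 was at 19.6 CPM in the conventionalized library of pair A, against 2.13 to 2.47 CPM in the other conventionalized libraries. Tlr2 was at 2.42 CPM in germ-free pair D, against 7.57 to 8.55 CPM in the other germ-free libraries. Goblet cell markers summed to 51464 CPM in the conventionalized library of pair A, against 1622 to 6214 CPM in the other conventionalized libraries.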

How the results depend on the processing

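Nlrp6, Pycard, Casp1 and Myd88 kept a positive log2 fold change under all 17 alternatives, and Myd88 was called under none of them. Nlrp6 was called with the littermate block (1.45) and with library weights (1.20), Pycard with the block (1.58), and Casp1 with the block (1.17), library weights (0.91), library size only (0.93) and upper-quartile scaling (1.18). With 1 library left out, log2 fold changes ran from 0.96 to 1.67 for Nlrp6, 0.85 to 1.90 for Pycard and 0.88 to 1.33 for Casp1, and Nlrp6 and Casp1 were called without germ-free pair B (adjusted p = 0.0458 and 0.0416). Without both libraries that stood apart they were 0.92, 0.59 and 0.68, and those of Nod1 and Il18 changed sign, to 0.036 and -0.24. Ciita changed sign with library size only (-0.22), with a pseudocount of 2 (-0.012) and in 4 fits without 1 library (-0.37 to 0.31 over the 8).

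Members called higher numbered 3 with the littermate block, 2 with library weights, 1 with library size only, 1 with upper-quartile scaling and 0 to 2 with 1 library left out. Pathway genes called higher numbered 4 with the block, 5 with library weights, 1 with no filter and 0 to 2 with 1 library left out; those called lower numbered 2 or 3 throughout. Over all genes, 117 were called higher and 378 lower, against 812 and 505 with the block, 765 and 608 with library weights, 263 and 408 with upper-quartile scaling, 45 higher with no filter, 259 higher without both libraries that stood apart, and 14 to 445 higher and 177 to 456 lower with 1 library left out. The median log2 fold change of the genes tested was 0.32 over the 10053 that reached 10 CPM, 0.09 with library size only, 0.03 over 18340 genes with a filter of 1 CPM and -0.06 over 38312 genes with no filter, so its sign depends on the filter. Cd14 and Casp4 lost their call without each conventionalized library in turn, and without germ-free pair D, and Cd14 also without germ-free pair A and with no filter (adjusted p = 0.0563). Gsdme lost its call with no filter (0.0526), without conventionalized pairs B, C and D and without germ-free pair A (0.0692 to 0.106). The block changed no call of a member or a named pathway gene beyond those given beside the results. The cause of these changes was not tested. Depth limits Tlr4 (about 2 to 18 reads a library), Tlr5 (0 to 35), Nod2 (2 to 43) and, outside conventionalized pair A, Il18 (9 to 42).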
